A study of Mus musculus with 9 samples.

Results

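The fatty acid oxidation genes described here are 10 of the 24341 genes listed for mouse embryonic fibroblasts (MEFs). They were chosen by symbol and all 10 were found: the carnitine shuttle genes *Cpt1a* and *Cpt2*, the acyl-CoA dehydrogenase genes *Acadvl*, *Acadl* and *Acadm*, the trifunctional protein genes *Hadha* and *Hadhb*, and the regulators *Ppargc1a*, *Ppara* and *Ppard*. RNA-Seq was done on 9 MEF samples, 3 labelled WT, 3 labelled *Atm-/-* and 3 labelled *Sirt6-/-*. All are labelled C57BL/6 and were grown in DMEM with serum, and no age, drug or time point is given. The series concerns the DNA damage kinase ATM and the deacylase SIRT6 in ageing and metabolism, and the question here is how transcripts for burning fat stood in cells labelled as lacking either protein.

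Several features limit the groups as models. The label text on cell origin lists WT, *Sirt6-/-*, P53-/- and *Atm-/-*P53-/- mice for all samples alike. The study's methods describe the *Atm-/-* line as also lacking p53, and both mutant lines as immortalized and each obtained from a different outside laboratory. Genotype, cell line, source and p53 status therefore cannot be told apart. *Sirt6* had 4, 5 and 7 reads in *Sirt6-/-*, 402 to 487 in WT and 364 to 424 in the libraries labelled *Atm-/-*. *Trp53*, which encodes p53, had 806 to 946 reads in the libraries labelled *Atm-/-*, 6563 to 7108 in WT and 9081 to 9218 in *Sirt6-/-*. *Atm* itself had more reads in the libraries labelled *Atm-/-* (3443 to 3768) than in WT (1536 to 1627). A count per gene does not show whether a transcript is disrupted, so these libraries are called by their label throughout.

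Each sample had 32187040 to 33837949 counted reads. WT replicate 2 stood apart, with a chi-square per gene of 16.4 and 15.1 against the other WT samples, while all other pairs within a genotype lay at 5.24 to 6.88. Without it, 3 of the 10 genes were still called higher and 6 lower in the libraries labelled *Atm-/-* than in WT, and 3 higher and 2 lower in *Sirt6-/-*, and the log2 fold change of *Cpt1a* was -0.59 and 1.04, of *Cpt2* 0.41 and 1.5, of *Acadl* 0.21 and -0.52, of *Hadha* -0.22 and 0.28 and of *Hadhb* -0.74 and -0.39. Fibroblast markers were abundant in every sample, but their summed level, over 11 genes, was 28145 to 31231 CPM (counts scaled to the library size) in WT, 9114 to 9361 in the libraries labelled *Atm-/-* and 20225 to 20573 in *Sirt6-/-*. Of the 10 tested against WT, 1 was higher and 9 lower in the libraries labelled *Atm-/-*, and 4 were higher and 6 lower in *Sirt6-/-*. *Lum* was near the floor throughout, with 5 to 10 reads in WT, 6 to 8 in *Sirt6-/-* and 0 in all 3 libraries labelled *Atm-/-*. *Thy1* had 590 to 941 reads in WT, 2874 to 3200 in the libraries labelled *Atm-/-* and 1 to 33 in *Sirt6-/-*. Adipocyte, hepatocyte, striated muscle, macrophage, endothelial and epithelial markers summed to at most 46.2 CPM in any sample. The adipocyte marker *Adipoq* had 0 to 4 reads per sample, and of the 5 adipocyte markers 4 were at 0 in all libraries labelled *Atm-/-* and in all *Sirt6-/-* libraries. The 4 epithelial markers summed to 41.0 to 46.2 CPM in the libraries labelled *Atm-/-*, 18.2 to 21.6 in WT and 14.1 to 18.0 in *Sirt6-/-*. The 6 striated muscle markers, of which *Myog*, *Ckm* and *Myh6* were at 0 in all 9 samples, summed to 18.4 to 26.0 CPM in WT, 1.71 to 2.89 in the libraries labelled *Atm-/-* and 5.03 to 5.10 in *Sirt6-/-*. Nearly all of this was the single gene *Tnnt2* (18.3 to 26.0, 1.71 to 2.84 and 4.91 to 5.03 CPM). The 4 endothelial markers summed to 2.86 to 4.89, 9.81 to 12.5 and 0.552 to 0.840 CPM in the same order, and the 5 adipocyte markers to 0.288 to 0.698, 2.28 to 3.25 and 2.13 to 2.21. Of these sums, *Kdr* alone gave 2.73 to 4.32, 9.75 to 12.2 and 0.124 to 0.360 CPM. *Cebpa* alone gave 0.288 to 0.508, 2.28 to 3.25 and 2.13 to 2.21. These marker differences go with every genotype difference given here and their part in the results was not tested. The labels do not say whether the samples of a genotype come from separate cultures or embryos, so p-values measure only the spread between these samples. In bulk RNA, fewer cells of a kind and less RNA per cell cannot be told apart.

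Mitochondrial fatty acid oxidation begins when a long-chain fatty acid is joined to carnitine at the outer membrane, is carried inside and is returned to coenzyme A. Chain-shortening then repeats a cycle of dehydrogenation, hydration, a second dehydrogenation and cleavage to acetyl-CoA. Transcription of these enzymes is classically driven by the PPAR nuclear receptors together with the coactivator PGC-1α, most of all in liver, heart, muscle and brown fat, while cultured fibroblasts rely more on glucose.

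To compare genes with each other, the RPKM deposited by the authors was used, which divides reads by the listed length and by the library size. In WT the order was *Hadhb* (47.1 ± 0.902 RPKM, mean ± SD, n = 3 here and below), *Acadl* (42.4 ± 1.0), *Acadvl* (38.7 ± 1.05), *Hadha* (35.2 ± 1.39), *Cpt1a* (22.5 ± 0.808), *Acadm* (22.1 ± 1.78), *Ppard* (18.1 ± 1.28), *Cpt2* (5.57 ± 0.444), *Ppargc1a* (0.0723 ± 0.0396) and *Ppara* (0.0678 ± 0.0109). The WT samples of *Cpt1a* and *Acadm* overlapped, as did those of *Ppargc1a* and *Ppara*, and the other neighbours did not. *Acadl* led the order in the libraries labelled *Atm-/-* (54.1 ± 1.39 RPKM), where *Hadha* and *Acadvl* overlapped near 34.7 and 34.6 RPKM and *Cpt1a* and *Ppard* near 17.0 and 15.8. *Cpt1a* led in *Sirt6-/-* (50.3 ± 0.807 RPKM), followed by *Hadha* (46.7 ± 0.526). *Hadhb* and *Acadvl* overlapped there at 38.9 and 38.2 RPKM, and *Ppara* and *Ppargc1a* at 0.0443 and 0.0376. In each genotype the enzymes and *Ppard* lay far above *Ppara*, which had at most 39 reads in any sample.

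**Figure D1:**
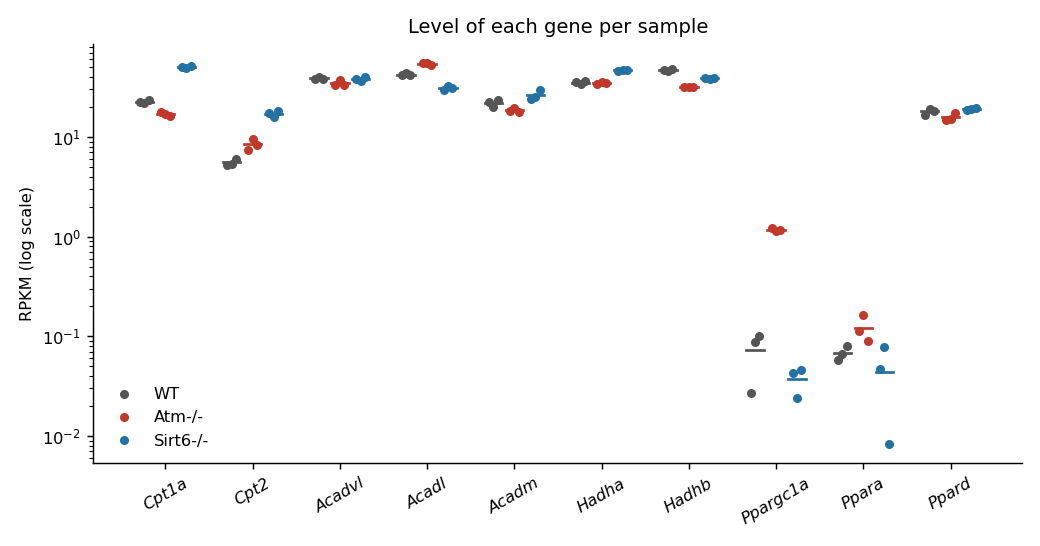
RPKM of the 10 genes in each of the 9 samples on a log scale, with points for samples and a bar for the mean of the 3 samples of a genotype. The enzymes and *Ppard* lie above 5 RPKM in every sample, *Ppara* lies below 0.2, and *Ppargc1a* is near 1.17 RPKM only in the libraries labelled *Atm-/-*.

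The carnitine shuttle genes did not move in parallel. *Cpt1a* (chr19:3322334-3385733, plus strand of GRCm38), which encodes the liver-type carnitine palmitoyltransferase 1 that makes acylcarnitine and is the step inhibited by malonyl-CoA, was lower in the libraries labelled *Atm-/-* and higher in *Sirt6-/-*. Its normalised CPM (CPM after TMM scaling over the 9 libraries) were 102, 99.5 and 106 in WT, 72.3, 69.6 and 66.6 in the libraries labelled *Atm-/-*, and 213, 213 and 221 in *Sirt6-/-*. The 3 groups did not overlap. The log2 fold change against WT was -0.57 in the libraries labelled *Atm-/-* (standard error 0.05, adjusted p = 3.0e-07, from the quasi-likelihood fit of edgeR, corrected over all genes by the Benjamini-Hochberg method, as every adjusted p below) and 1.08 in *Sirt6-/-* (standard error 0.05, adjusted p = 2.6e-11).

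*Cpt2* (chr4:107903981-107923610, minus strand), which encodes the inner-membrane enzyme that returns the acyl group to coenzyme A, was higher in both. It had 13.1, 13.4 and 15.1 normalised CPM in WT, 16.5, 21.5 and 18.8 in the libraries labelled *Atm-/-*, and 40.6, 36.9 and 43.3 in *Sirt6-/-*. All samples of the 3 groups were apart, with the widest relative spread in the libraries labelled *Atm-/-*. The log2 fold changes against WT were 0.44 (standard error 0.11, adjusted p = 2.9e-03) and 1.54 (standard error 0.09, adjusted p = 7.1e-10). The *Cpt1a* to *Cpt2* ratio of RPKM, which does not depend on how libraries are scaled, was 4.04 ± 0.192 in WT, 2.03 ± 0.325 in the libraries labelled *Atm-/-* and 2.94 ± 0.195 in *Sirt6-/-*. Neither group overlapped WT, and the exact two-sided permutation p was 0.1 in each case, the smallest that 3 against 3 samples allow.

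Of the CPT1 isoforms, *Cpt1a* was the main one in every genotype, with 79.6 ± 2.34% of the summed RPKM of *Cpt1a*, *Cpt1b* and *Cpt1c* in WT, 83.3 ± 1.67% in the libraries labelled *Atm-/-* and 89.6 ± 0.433% in *Sirt6-/-*. The muscle-type *Cpt1b* made up 2.10 ± 0.209%, 6.27 ± 1.28% and 1.51 ± 0.528%, and the brain-type *Cpt1c* 18.3 ± 2.17%, 10.5 ± 0.716% and 8.87 ± 0.199%. The sum over the 3 isoforms was 28.2 ± 0.693 RPKM in WT, 20.4 ± 0.565 in the libraries labelled *Atm-/-* and 56.1 ± 0.722 in *Sirt6-/-*. Because *Cpt1a* makes up most of the sum, the direction of the sum largely restates that of *Cpt1a*.

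The sequences before the *Cpt1a* and *Cpt2* start sites are shown because these 2 shuttle genes rose together in *Sirt6-/-* and moved apart in the libraries labelled *Atm-/-*. They are RefSeq sequences of GRCm38.p6, 5′ to 3′ on the strand of the gene, limited to the part of the 250 bases before the RefSeq start that no GENCODE M21 exon covers (chr19:3323051-3323284 and chr4:107923611-107923839). Capitals mark matches on either strand to AGGTCA, the hexamer bound by many nuclear receptors, or to GGGCGG, the GC box bound by Sp-family factors.
Cpt1a: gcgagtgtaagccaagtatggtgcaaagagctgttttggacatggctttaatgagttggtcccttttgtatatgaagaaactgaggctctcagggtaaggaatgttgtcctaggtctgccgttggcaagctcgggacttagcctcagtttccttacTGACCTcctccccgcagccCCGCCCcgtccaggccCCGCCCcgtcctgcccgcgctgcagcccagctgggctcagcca
Cpt2: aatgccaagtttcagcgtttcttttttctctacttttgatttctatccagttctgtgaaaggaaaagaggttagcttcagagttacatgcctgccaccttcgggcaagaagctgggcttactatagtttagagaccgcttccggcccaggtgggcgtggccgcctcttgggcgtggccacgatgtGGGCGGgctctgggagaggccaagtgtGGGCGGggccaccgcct
Both stretches held 2 GC boxes, and *Cpt1a* also held 1 AGGTCA match. A GC box was present in the 250 bases before 7 of the 10 genes, against 32.7% of 32851 RefSeq promoters, and AGGTCA before 3 (*Cpt1a*, *Acadm* and *Acadvl*) against 14.0%. *Hadha* and *Hadhb*, both among the 7, have windows that share most of their bases. The 7 windows with a GC box had a GC content of 56.8 to 76.4%, against a median of 52.4% over all promoters. These matches are descriptions of sequence and not of binding.

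The acyl-CoA dehydrogenases take the first step of the cycle and differ in the chain length they prefer. *Acadl* (chr1:66830839-66863277, minus strand), the long-chain enzyme, moved opposite to *Cpt1a*. Its normalised CPM were 86.6, 90.1 and 85.9 in WT, 102, 101 and 97.7 in the libraries labelled *Atm-/-*, and 57.9, 63.1 and 60.7 in *Sirt6-/-*. The groups were apart, with *Sirt6-/-* lowest and the libraries labelled *Atm-/-* highest. The log2 fold changes were 0.19 (standard error 0.05, adjusted p = 3.3e-03) in the libraries labelled *Atm-/-* and -0.53 (standard error 0.06, adjusted p = 5.9e-07) in *Sirt6-/-*.

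*Acadm* (chr3:153922357-153944632, minus strand), the medium-chain enzyme, had 49.5, 44.1 and 51.4 normalised CPM in WT, 35.6, 38.4 and 34.9 in the libraries labelled *Atm-/-*, and 49.4, 52.3 and 60.8 in *Sirt6-/-*. It was lower in the libraries labelled *Atm-/-* (log2 fold change -0.42 ± 0.07 SE, adjusted p = 1.5e-04), while *Sirt6-/-* overlapped WT (0.16 ± 0.08, adjusted p = 0.083). The *Sirt6-/-* difference did pass the test with library totals in place of TMM (0.25, adjusted p = 0.0116) and without *Sirt6-/-* replicate 1 (0.23, adjusted p = 0.0343). *Acadvl* (chr11:70010183-70015411, minus strand), the very long-chain enzyme, had 87.9, 92.6 and 88.7 normalised CPM in WT, 69.9, 77.1 and 69.4 in the libraries labelled *Atm-/-*, and 83.6, 79.2 and 87.6 in *Sirt6-/-*. It was lower in the libraries labelled *Atm-/-* (-0.32 ± 0.06, adjusted p = 1.5e-04), and the value in *Sirt6-/-* did not pass the test (-0.10 ± 0.05, adjusted p = 0.098). Exons of *Dvl2* on the opposite strand overlap 42.9% of the annotated exonic bases of *Acadvl*, and the library preparation does not mark strand. *Dvl2* was listed with 2385 to 2554 reads in WT, 2787 to 2894 in the libraries labelled *Atm-/-* and 2087 to 2371 in *Sirt6-/-*, so the *Acadvl* values are uncertain.

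Together with the short-chain *Acads*, these genes gave a similar summed RPKM in WT and the libraries labelled *Atm-/-* (124 ± 1.62 and 124 ± 4.44 RPKM, overlapping) and 117 ± 4.0 in *Sirt6-/-*. RPKM is not corrected for library composition, so this likeness depends on the scaling. With TMM, *Acadm*, *Acadvl* and *Acads* were lower in the libraries labelled *Atm-/-* than in WT (log2 fold changes -0.42, -0.32 and -0.45). *Acadl* was higher (0.19). The sum and every share of it include *Acadvl*, whose values are uncertain because of the overlap with *Dvl2*. The composition of the sum was different in each genotype. *Acadl* was 34.3 ± 1.21% of it in WT, 43.7 ± 0.949% in the libraries labelled *Atm-/-* and 26.6 ± 1.33% in *Sirt6-/-*. *Acadm* was 17.9 ± 1.24%, 14.9 ± 0.332% and 22.4 ± 1.54%. *Acads* was 16.5 ± 1.10%, 13.5 ± 0.430% and 18.4 ± 0.671%, and *Acadvl* was 31.3 ± 1.15%, 27.9 ± 0.929% and 32.6 ± 1.18%. Only the *Acadvl* share of *Sirt6-/-* overlapped WT (exact permutation p = 0.2), the other 7 shares being apart from WT at the smallest possible p of 0.1. The *Acadl* to *Acadm* ratio was 1.93 ± 0.207 in WT, 2.93 ± 0.127 in the libraries labelled *Atm-/-* and 1.19 ± 0.118 in *Sirt6-/-*.

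**Figure D2:**
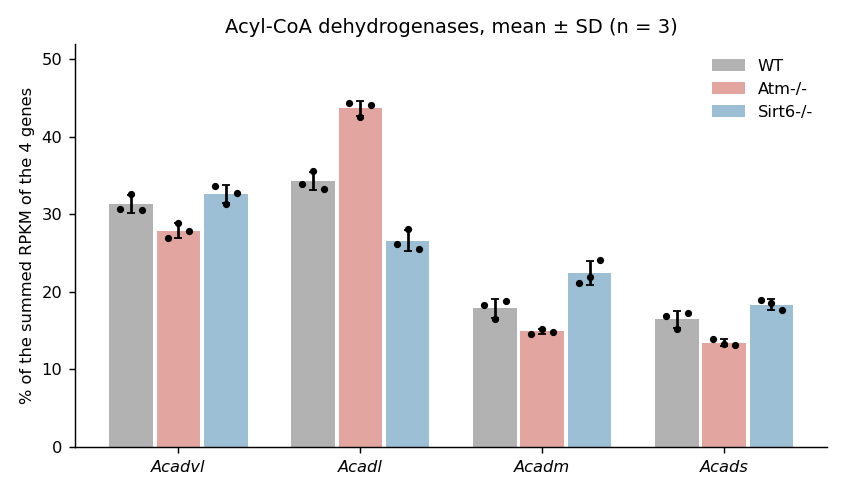
Share of each acyl-CoA dehydrogenase gene in the summed RPKM of *Acadvl*, *Acadl*, *Acadm* and *Acads*, in percent, with bars for the mean, error bars for the SD (n = 3) and points for samples. *Acadl* takes 43.7% in the libraries labelled *Atm-/-* and 26.6% in *Sirt6-/-*, on either side of 34.3% in WT. Every share depends on *Acadvl*, whose values are uncertain because of the overlap with *Dvl2*.

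*Hadha* and *Hadhb* encode the α and β subunits of the mitochondrial trifunctional protein, which carries out the remaining steps for long chains, the α subunit hydration and the second dehydrogenation and the β subunit thiolytic cleavage. *Hadha* (chr5:30118304-30155162, minus strand) and *Hadhb* (chr5:30155248-30184593, plus strand) lie head to head. The 85 bases between their outermost annotated starts (chr5:30155163-30155247, plus strand, RefSeq sequence of GRCm38.p6) are shown because this stretch lies upstream of both subunit genes, whose levels did not move together. Capitals mark GGGCGG.
between Hadha and Hadhb: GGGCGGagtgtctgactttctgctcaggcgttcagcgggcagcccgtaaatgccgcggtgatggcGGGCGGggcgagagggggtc
The stretch held 2 GC boxes and 9 CpG dinucleotides, with a GC content of 69.4%.

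*Hadha* had 145, 137 and 148 normalised CPM in WT, 124, 129 and 128 in the libraries labelled *Atm-/-*, and 176, 178 and 182 in *Sirt6-/-*. It was higher in *Sirt6-/-* (log2 fold change 0.32 ± 0.05 SE, adjusted p = 2.0e-05). The libraries labelled *Atm-/-* were lower (-0.18 ± 0.05, adjusted p = 3.3e-03), but not with library totals in place of TMM (-0.02, adjusted p = 0.722). *Hadhb* had 104, 102 and 105 normalised CPM in WT, 62.4, 63.2 and 63.4 in the libraries labelled *Atm-/-*, and 80.9, 78.8 and 81.7 in *Sirt6-/-*. It was lower in both, with log2 fold changes of -0.72 (standard error 0.05, adjusted p = 8.3e-09) and -0.36 (standard error 0.05, adjusted p = 8.4e-06), and no sample overlapped WT.

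The *Hadha* to *Hadhb* ratio of RPKM lay at 0.729 to 0.758 in WT, at 1.07 to 1.10 in the libraries labelled *Atm-/-* and at 1.17 to 1.22 in *Sirt6-/-*. The means were 0.747 ± 0.0155, 1.09 ± 0.0148 and 1.20 ± 0.0247. *Hadhb* thus exceeded *Hadha* per length in all 3 WT samples and in none of the other 6. The exact permutation p against WT was 0.1 for each, the smallest possible. The ratio rests on the listed lengths of 3835 bases for *Hadha* and 2071 for *Hadhb*, which set its level in every sample alike but not its difference between genotypes. Exons of *Garem2* on the opposite strand cover 0.859% of the exonic bases of *Hadha*.

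**Figure D3:**
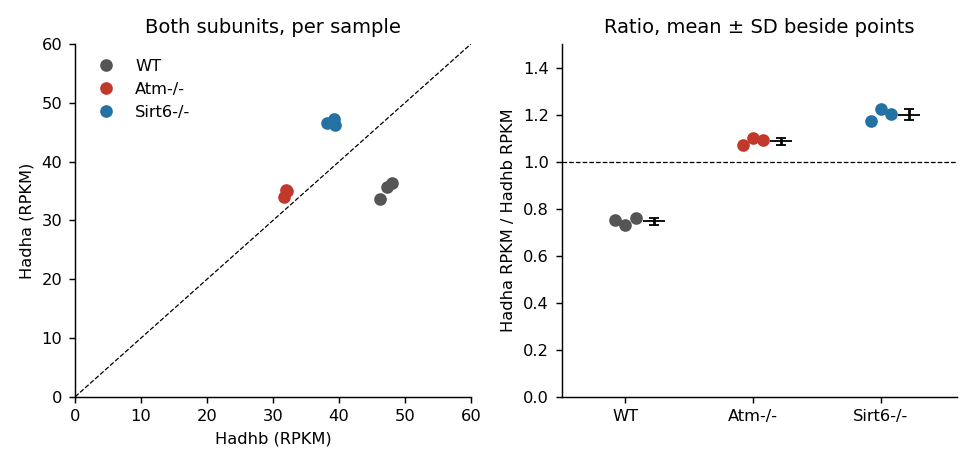
Left, RPKM of *Hadha* against *Hadhb* in each sample, with a dashed line of equal level. Right, their ratio per sample with the mean ± SD (n = 3) beside the points. The WT samples lie below the line (ratio 0.729 to 0.758) and the other 6 above it (1.07 to 1.22).

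Among the regulators, *Ppargc1a* (chr5:51454250-51567726, minus strand), which encodes PGC-1α, had the largest change of the 10 genes. It had 6, 19 and 22 reads in WT, 9, 5 and 10 in *Sirt6-/-*, and 263, 247 and 242 in the libraries labelled *Atm-/-*. These were 0.188, 0.607 and 0.698 normalised CPM in WT, 0.276, 0.154 and 0.300 in *Sirt6-/-*, and 7.59, 7.05 and 7.15 in the libraries labelled *Atm-/-*. WT and *Sirt6-/-* overlapped and all libraries labelled *Atm-/-* were far above them. The log2 fold change in the latter was 3.85 against WT (standard error 0.29, adjusted p = 2.1e-08), with 3.46 to 4.18 when each sample was left out in turn. *Ppargc1a* passed the filter on low counts only through these libraries, where it is high. The smallest of the values came without WT replicate 1 and the largest without WT replicate 3. The level reached, 1.17 ± 0.0470 RPKM, was still below that of every enzyme.

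*Ppargc1a* had too few reads to be tested between *Sirt6-/-* and WT. Without a filter on low counts the log2 fold change was -1.03 (standard error 0.72, adjusted p = 0.224). It passed the test only without WT replicate 1, the WT sample with 6 reads (-1.42, adjusted p = 0.0326), of the 7 alternatives that gave a value. As a share of the PGC-1 family, *Ppargc1a* was 0.217 ± 0.116% in WT, 0.145 ± 0.0486% in *Sirt6-/-* and 3.14 ± 0.0926% in the libraries labelled *Atm-/-*. *Pprc1*, the related coactivator of growth-related transcription, held 86.8 ± 0.676%, 99.1 ± 0.539% and 92.9 ± 0.618%. *Ppargc1b*, encoding PGC-1β, was 13.0 ± 0.671% of the family in WT and 0.719 ± 0.504% in *Sirt6-/-*, from 501 to 568 and from 6 to 39 reads.

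The *Ppargc1a* upstream sequence is shown because this gene was nearly silent in 6 samples and not in the other 3 (RefSeq, GRCm38.p6, chr5:51567727-51567975, minus strand).
Ppargc1a: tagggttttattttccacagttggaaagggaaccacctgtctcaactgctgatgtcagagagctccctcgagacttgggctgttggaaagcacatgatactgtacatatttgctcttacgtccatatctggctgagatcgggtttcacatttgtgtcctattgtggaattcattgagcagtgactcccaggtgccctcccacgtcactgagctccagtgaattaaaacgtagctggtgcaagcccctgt
It has no capitals because none of the motifs searched occurred in it. It held 5 CpG dinucleotides at a GC content of 48.2%, against 9 to 27 in the 250 bases before the other 9 genes and a median of 6 and 52.4% over all promoters. Besides AGGTCA and GGGCGG, the search on both strands covered the PPAR direct repeat (in 0.0335% of promoters), the ERR element, which contains AGGTCA (0.387%), the CCAAT box (33.8%), the E-box (6.02%), the NRF1 core (0.782%) and the cyclic AMP response element (1.55%). Among the 10 genes, the CCAAT box occurred before *Cpt1a* and *Ppard* and the NRF1 core before *Ppara*, and the other 4 of these 6 motifs were found before none. The windows of *Hadha* and *Hadhb* share most of their bases.

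*Ppard* (chr17:28232700-28301474, plus strand), the widely expressed PPAR, was the main receptor of its family. It had 57.0, 65.5 and 62.7 normalised CPM in WT, 44.9, 46.7 and 53.2 in the libraries labelled *Atm-/-*, and 59.2, 60.9 and 62.7 in *Sirt6-/-*. The libraries labelled *Atm-/-* were lower (log2 fold change -0.36 ± 0.07 SE, adjusted p = 6.1e-04), and *Sirt6-/-* overlapped WT (-0.02 ± 0.06, adjusted p = 0.83). *Ppara* (chr15:85734983-85802819, plus strand), the receptor that drives fat oxidation in liver, had 14, 16 and 19 reads in WT, 27, 39 and 21 in the libraries labelled *Atm-/-*, and 11, 18 and 2 in *Sirt6-/-*. At this depth neither difference from WT was detectable (log2 fold changes 0.68 with standard error 0.40 and adjusted p = 0.14, and -0.70 with standard error 0.58 and adjusted p = 0.28).

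Within the PPAR family, *Ppard* made up 99.3 ± 0.122% of the RPKM in WT, 96.6 ± 0.509% in *Sirt6-/-* and 85.2 ± 0.627% in the libraries labelled *Atm-/-*. *Pparg*, the adipogenic receptor, made up 0.291 ± 0.0881%, 3.19 ± 0.448% and 14.1 ± 0.800%, and *Ppara* 0.372 ± 0.0471%, 0.227 ± 0.177% and 0.671 ± 0.236%. *Pparg* had 2 to 4 reads in WT, 35 to 43 in *Sirt6-/-* and 145 to 176 in the libraries labelled *Atm-/-*. The adipocyte marker *Cebpa* also had more reads in these (80 to 110) and in *Sirt6-/-* (70 to 72) than in WT (9 to 16), and its part in the result was not tested. The defining adipocyte marker *Adipoq* was at 0 in all 6.

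Counted against WT, 3 of the 10 genes were higher in the libraries labelled *Atm-/-* (*Cpt2*, *Acadl* and *Ppargc1a*, the last tested only because it is high there), 6 were lower (*Cpt1a*, *Acadm*, *Acadvl*, *Hadha*, *Hadhb* and *Ppard*) and *Ppara* did not pass the test. Of all 13283 genes tested, 68.4% were called, 34.7% higher and 33.6% lower, so 9 called genes of 10 are to be read against a background in which most genes differed. The samples did not overlap WT for any of the 10 genes, *Ppara* included, against 72.6% of all genes. The median log2 fold change was -0.25 over the 10 genes and 0.02 over all genes. In *Sirt6-/-*, 3 of 9 tested genes were higher (*Cpt1a*, *Cpt2* and *Hadha*), 2 were lower (*Acadl* and *Hadhb*) and 4 did not pass. There, 76.6% of 13206 genes were called, 39.2% higher and 37.4% lower, and the medians were -0.02 over the 9 genes and 0.02 over all. The 5 of 9 called are below that background share, and 6 of the 9 genes did not overlap WT, against 79.0% of all genes.

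*Cpt1a*, *Acadl* and *Hadha* were called in opposite directions against WT, as were 12.4% of the 12814 genes tested in both. Both comparisons use the same 3 WT samples. *Cpt2* was higher and *Hadhb* lower in both. With library totals in place of TMM, *Hadha* was not called between the libraries labelled *Atm-/-* and WT.

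**Figure D4:**
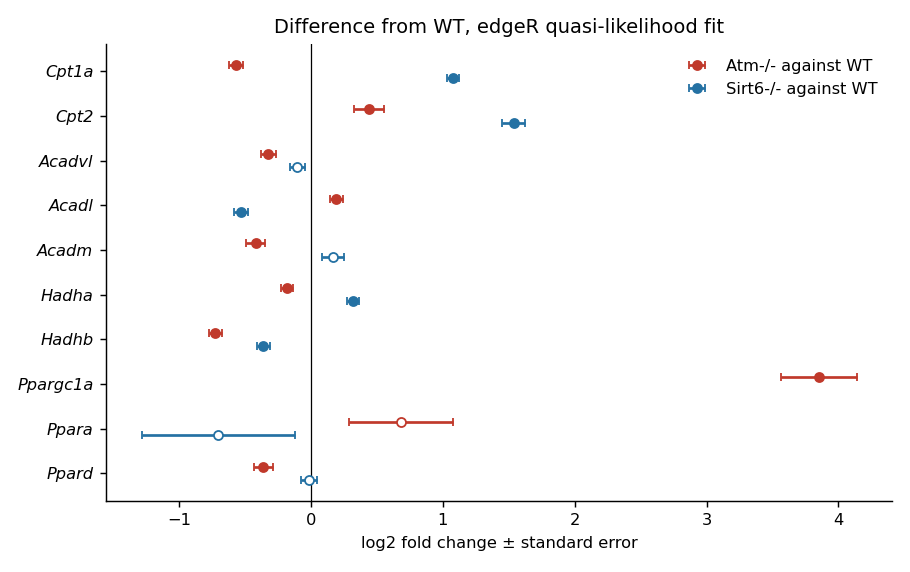
Log2 fold change against WT with its standard error for the libraries labelled *Atm-/-* (red) and *Sirt6-/-* (blue), filled where the adjusted p was under 0.05. *Cpt1a*, *Acadl* and *Hadha* have filled points on opposite sides of 0, *Hadhb* is below 0 in both, and *Ppargc1a* (3.85) has no value for *Sirt6-/-*.

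Set directly against *Sirt6-/-*, the libraries labelled *Atm-/-* were higher in 3 genes and lower in 7 of 10. Of 13460 genes tested, 75.8% were called, 38.0% higher and 37.8% lower. The largest enzyme difference was in *Cpt1a* (log2 fold change -1.63 ± 0.05 SE, adjusted p = 7.1e-18), followed by *Cpt2* (-1.08, adjusted p = 6.4e-10). *Acadm* (-0.57), *Hadha* (-0.49), *Hadhb* (-0.35), *Ppard* (-0.33) and *Acadvl* (-0.20) were lower by less. *Acadl* was higher (0.74 ± 0.05, adjusted p = 3.1e-11), as was *Ppargc1a* (4.88 ± 0.26, adjusted p = 4.6e-13). With 5 to 10 reads in *Sirt6-/-*, *Ppargc1a* was tested here only because it is high in the libraries labelled *Atm-/-*. *Ppara*, with 11, 18 and 2 reads in *Sirt6-/-*, also passed the filter on low counts only through those libraries. *Ppara* was also higher (1.40 ± 0.53, adjusted p = 0.021), but this rested on *Sirt6-/-* replicate 3 with 2 reads and on replicate 2 of the libraries labelled *Atm-/-* with 39. Without the first the log2 fold change was 0.91 (adjusted p = 0.118) and without the second 1.15 (adjusted p = 0.0932).

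Other genes of the pathway were taken from lists that hold none of the 10. Over all 9 lists together, 78 of 91 genes were tested against WT in each comparison. In the libraries labelled *Atm-/-*, 34 were higher, 25 lower and 19 not past the test, with a median log2 fold change of 0.10, against 34.7% higher and 33.6% lower of all genes tested. In *Sirt6-/-*, 39 were higher, 21 lower and 18 not past it, with a median of 0.25, against 39.2% and 37.4% of all genes. The counts of the single lists below are to be read against the same shares, and no list was tested against them.

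Uptake and activation supply the acyl-CoA. Of 14 tested genes, 8 were higher and 3 lower in the libraries labelled *Atm-/-*, and 7 higher and 5 lower in *Sirt6-/-*. *Acsl6*, a long-chain acyl-CoA synthetase, had 424 to 511 reads in the libraries labelled *Atm-/-* against 1 to 4 in WT (adjusted p = 1.1e-11). It passed the filter on low counts only through the libraries labelled *Atm-/-*, where it is high. *Fabp4*, a fatty acid binding protein of fat cells, was higher in both (log2 fold changes 1.40 and 1.48, adjusted p = 1.4e-06 and 5.0e-07). The transporter gene *Slc27a6* fell from 142 to 200 reads in WT to 1 to 4 in the libraries labelled *Atm-/-* and 0 to 2 in *Sirt6-/-* (adjusted p = 1.8e-09 and 1.9e-09). It passed that filter only through WT, where it is high. The related *Slc27a4* was lower in the libraries labelled *Atm-/-* (-0.86), and *Slc27a3* was higher (1.61) and *Fabp3* lower (-2.06) in *Sirt6-/-*.

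Among the other carnitine genes, *Slc25a20*, the carrier that moves acylcarnitine across the inner membrane, was higher in *Sirt6-/-* (log2 fold change 0.68 ± 0.09 SE, adjusted p = 4.0e-06) and had -0.09 in the libraries labelled *Atm-/-* (adjusted p = 0.37). *Crat*, carnitine acetyltransferase, was higher in the libraries labelled *Atm-/-* (1.04, adjusted p = 1.5e-09) and had -0.10 in *Sirt6-/-* (adjusted p = 0.22). The carnitine importer *Slc22a5* was lower in both (-0.42 and -0.46). *Cpt1b* was higher (0.94) and *Cpt1c* lower (-1.44) in the libraries labelled *Atm-/-*, and their values in *Sirt6-/-* were 0.42 and -0.14, not past the test.

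Malonyl-CoA, the inhibitor of CPT1, is made by the acetyl-CoA carboxylases and removed by malonyl-CoA decarboxylase. The carboxylase gene *Acaca* was higher in both (log2 fold changes 0.23 and 0.39). *Acacb*, the mitochondrial-membrane form, was lower in the libraries labelled *Atm-/-* (-0.98, adjusted p = 1.4e-04) and had 0.03 in *Sirt6-/-* (adjusted p = 0.92). The decarboxylase gene *Mlycd* was higher in *Sirt6-/-* (1.27 ± 0.15, adjusted p = 1.6e-06) and had 0.19 in the libraries labelled *Atm-/-* (adjusted p = 0.32).

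The other 13 mitochondrial enzymes were mixed, with 3 higher and 4 lower in the libraries labelled *Atm-/-* and 6 higher and 4 lower in *Sirt6-/-*. *Decr1*, the dienoyl-CoA reductase needed for polyunsaturated chains, had 45 to 67 reads in *Sirt6-/-* against 778 to 832 in WT (log2 fold change -3.84 ± 0.14 SE, adjusted p = 3.1e-12). *Ech1*, which acts on the same class of chains, was higher there (0.96, adjusted p = 2.8e-07), as was *Acad12* (1.76). *Echs1*, the short-chain enoyl-CoA hydratase, was lower in *Sirt6-/-* (-0.57) and higher in the libraries labelled *Atm-/-* (0.31). In the latter *Acat1*, a mitochondrial thiolase, and *Acad11* were lower (-1.07 and -0.97). The electron transfer flavoprotein accepts the electrons of the acyl-CoA dehydrogenases. Its α subunit gene *Etfa* was lower in both (-0.80, adjusted p = 5.6e-09, and -0.34, adjusted p = 1.3e-05), *Etfb* was lower in the libraries labelled *Atm-/-* (-0.16), and the oxidoreductase gene *Etfdh* was higher in *Sirt6-/-* (0.37).

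The peroxisomal list, which acts on very long and branched chains, had 10 of 14 tested genes higher and 1 lower in *Sirt6-/-*, where 39.2% of all genes were higher and 37.4% lower. The median log2 fold change of the list was 0.64 and that of all genes 0.02. There were 5 higher and 4 lower with a median of -0.01 in the libraries labelled *Atm-/-*, and the difference between the comparisons was not tested. The transporter gene *Abcd2* had 119 to 164 reads in *Sirt6-/-* and 3 to 7 in WT (adjusted p = 1.2e-08). In that comparison it passed the filter on low counts only through *Sirt6-/-*, where it is high. *Scp2*, which includes a peroxisomal thiolase, was higher (1.10 ± 0.06, adjusted p = 1.5e-10). In the libraries labelled *Atm-/-*, *Amacr*, a racemase for branched chains, was higher (1.73) and *Decr2* lower (-0.83).

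Of 11 tested partners and coregulators of the PPARs, 6 were higher and 5 lower in the libraries labelled *Atm-/-*, and 5 higher and 5 lower in *Sirt6-/-*. *Ppargc1b* was lower in both (log2 fold changes -1.68, adjusted p = 3.8e-08, and -4.58, adjusted p = 2.0e-09). In *Sirt6-/-* against WT it passed the filter on low counts only through WT, where it is high. *Lpin1*, which encodes a coactivator of PPARα as well as a phosphatidate phosphatase, was higher in both (0.77 and 2.84). *Esrra*, an estrogen-related receptor that works with PGC-1α, and the corepressor gene *Nrip1* were the next largest falls in *Sirt6-/-* (-0.99) and in the libraries labelled *Atm-/-* (-0.83). Of 7 tested PPAR target genes outside the cycle, 3 were higher and 3 lower in each comparison. *Angptl4*, an inhibitor of lipoprotein lipase, rose from 53 to 66 reads in WT to 344 to 450 in the libraries labelled *Atm-/-* and 3480 to 3754 in *Sirt6-/-* (2.59 and 5.87). *Ucp2*, a mitochondrial carrier, rose from 39 to 54 reads to 3998 to 4599 and 2420 to 2676 (6.34 and 5.68). The near-identical thioesterase genes *Acot1* and *Acot2*, whose reads may not be separable, were lower in both (-1.12 and -1.49, then -1.60 and -0.94). Of the 8 energy sensor genes, which hold AMPK subunits and sirtuins, 6 were higher and 1 lower in the libraries labelled *Atm-/-*, and 4 higher and 1 lower in *Sirt6-/-*. *Sirt1* was higher in both (1.40 and 1.10) and the AMPK subunit gene *Prkag2* lower in both (-0.61 and -2.31).

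**Figure D5:**
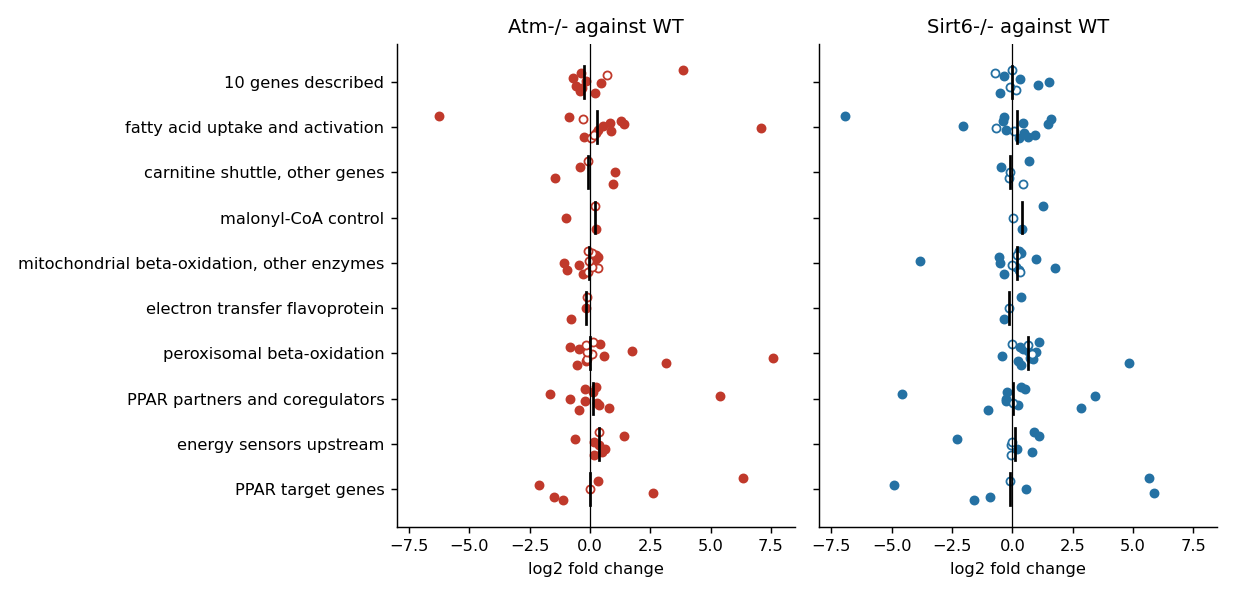
Log2 fold change against WT of each tested gene of the 10 described and of the 9 other lists, filled where the adjusted p was under 0.05, with a black bar at the median of the list. The peroxisomal list has its median at 0.64 in *Sirt6-/-* and at -0.01 in the libraries labelled *Atm-/-*.

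Genes with the most similar profile were sought over the 9 samples among the 9365 genes whose log2 CPM averaged 3 or more, by the root mean square difference of centred log2 normalised CPM. The nearest to *Cpt1a* was *Tgfbr2*, a TGFβ receptor gene (0.07 on the log2 scale, against a spread of 0.68 of *Cpt1a* itself). The nearest to *Cpt2* was *Rnf145* (0.11, against a spread of 0.66) and to *Acadm* *Maged1* (0.05, against 0.26). For *Acadl* it was *Agpat4* (0.03, against 0.31) and for *Acadvl* *Tkt* (0.04, against 0.14). For *Hadha* it was *Erlin2* (0.04, against 0.21), for *Hadhb* *Tbc1d8b* (0.02, against 0.29) and for *Ppard* *Echdc1* (0.05, against 0.18). For *Ppargc1a* and *Ppara* the nearest genes, *Prl2c3* and *Hipk2*, were at 0.61 and 0.67, against spreads of 2.19 and 1.04. *Ppargc1a* and *Ppara* lie below a mean log2 CPM of 3 themselves, and genes as low as they are were not searched.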

How the data were processed

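RNA-Seq of 9 MEF samples (3 WT, 3 *Atm-/-*, 3 *Sirt6-/-*, grouped by the labels) was used. Per the labels, mRNA was selected with oligo(dT) and made into Illumina libraries without strand marking. The authors deposited for each sample unnormalized read counts of 24341 genes, and RPKM, which divide these counts by a listed length and by about the library total, so that they are not corrected for library composition. The submitters' processing notes name the build mm10; the aligner, counter and annotation are not given in the sources used here.

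Each pair of genotypes was fitted on the counts of all genes with R 4.3.3 and edgeR 4.0.16, using TMM, filterByExpr on genotype, glmQLFit and glmQLFTest, and a Benjamini-Hochberg adjusted p under 0.05 was called. Standard errors come from the F statistic. Fold changes of genes with few reads depend on the prior count (0.125), so reads are given for them. Ratios and shares were computed per sample from RPKM and compared by exact two-sided permutation. With 3 counts equal to 0.0887 to 0.0932 CPM, genes near *Ppara* are limited by depth; such floors cover counting error only. No 2 samples were identical, and the chi-square per gene within a genotype was 5.24 to 6.88, or 15.1 and 16.4 for WT replicate 2. The procedure was tested on simulated data in which few genes changed, equally many up and down. That simulation could not test the scaling where most genes differ, as here.

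The members and lists were chosen with earlier results of these data known. Of the other pathway lists, at most the 2 largest rises and 2 largest falls per comparison with WT are named, among called genes without overlap whose mean log2 CPM was 0 or more. In lists of 5 genes or fewer all are eligible. A result the rule would name is not reported here. *Pprc1*, *Cebpa*, *Tnnt2*, *Kdr*, *Acads*, *Dvl2* and *Garem2* are named besides, chosen after the values were seen, as were the ratios and shares. Gene positions are from GENCODE M21 (GRCm38) and upstream sequences from RefSeq on GRCm38.p6, where all 10 genes were matched. The alternatives were DESeq2 size factors, library totals, at least 10 counts in every sample, no filter, a joint fit of all 9 samples, a block on replicate number, the DESeq2 1.42.0 Wald test, edgeR's exact test, and each sample left out in turn.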

Additional observations from a re-analysis of the deposited data

How the results depend on the processing

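Of 402 values of the 10 genes recomputed under the alternatives, 3 lost and 3 gained a call, 4 changed sign, and the others kept their direction and their side of the threshold. The sign changes were all in *Ppard* between *Sirt6-/-* and WT, a difference near 0 that was not called: 0.0734 with library totals, 0.0004 with at least 10 counts in every sample, and, of the 6 values with a sample left out (-0.0844 to 0.0144), 0.0144 without WT replicate 2 and 0.0046 without *Sirt6-/-* replicate 1. With at least 10 counts in every sample, 1 in place of 3 of the genes was higher in the libraries labelled *Atm-/-* than in *Sirt6-/-*, because *Ppargc1a* and *Ppara* were then not tested. The lost calls were those of *Hadha* and *Ppara* given above. The gained ones were all *Acadm* in *Sirt6-/-* against WT, with library totals, with the replicate block and without *Sirt6-/-* replicate 1. *Ppargc1a*, not among these values because it was not tested in *Sirt6-/-* against WT, was tested and called lower there without WT replicate 1.

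Library totals in place of TMM shifted the median log2 fold change of all genes by 0.16 in the libraries labelled *Atm-/-* against WT, by 0.09 in *Sirt6-/-* against WT and by 0.06 between them. Against WT, 6156 of 9482 called genes were then higher in the libraries labelled *Atm-/-*, in place of 4611 of 9080. Among the 10 genes, library totals changed the call of *Hadha* in that comparison and of *Acadm* in *Sirt6-/-* against WT.

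With each sample left out in turn, 3 of the genes were higher and 6 lower in the libraries labelled *Atm-/-* in every case, 3 to 4 were higher and 2 to 3 lower in *Sirt6-/-*, and 2 to 3 were higher and 7 lower between them. Same-numbered samples did not deviate together (mean correlations over 13757 genes of -0.0106, -0.000993 and 0.0258 for the 3 pairs of genotypes), so the numbers do not pair the samples. A replicate block in the fit gave calls for 8833, 10041 and 10157 genes in place of 9080, 10114 and 10205, and the change among the 10 was in *Acadm* of *Sirt6-/-* (0.16, adjusted p = 0.0437).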
